A study of Mus musculus with 11 samples.

Results

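The activity-induced genes described here are 42 mouse genes, named by symbol as immediate early genes and slower genes that neurons induce when they fire, and matched to the Ensembl identifiers of the count table through the GENCODE M21 annotation. All 42 were among the 52550 genes of the table. Levels are given in CPM, the counts of a gene scaled to the same total in each library. A filter on low values kept 40 of the genes and 15373 genes in all. It asked for a level of 1 CPM or more in 3 libraries and for a median of 10 counts or more. Atf3 and Maff did not pass it. Fos, Arc and Egr1, the genes that mark the set, were counted in each of the 11 libraries.

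Calcium that enters a firing neuron activates kinases that phosphorylate transcription factors already bound to DNA, among them CREB and serum response factor, and the immediate early genes are then transcribed within minutes without new protein. Many of them encode transcription factors, which drive a second wave of genes for synaptic and secreted proteins, while others encode phosphatases and destabilising factors that shut the signal down. In the striatum and the nucleus accumbens, dopamine and glutamate act together on this programme, and Fos and Arc RNA are widely used as a trace of recent activity.

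The libraries were prepared from poly(A) RNA of the nucleus accumbens shell, the ventral striatal region tied to reward, punched from frozen brain sections of 300 µm from mice 8 weeks old on a CBA/C57BL6J/129svEmx mixed background. The study asks how weaker signalling through the retinoic acid receptor Rarβ alters transcription in the presence of a Huntington's disease mutation, and its alleles are R6/1, a transgene with the first exon of human HTT under the human HTT promoter, and Rarβ. In the labels a library has an animal code and a numbered library code, but no genotype, hour of collection or handling. All 11 libraries were therefore left without a group, and no genotypes were compared. Of the 12 samples the study names, 1 failed its quality control. Animals are given below by code, and the number of the library code, whose meaning the labels do not give, follows in brackets: m115 (1), m49 (2), m47 (3), m74 (5), m73 (6), m101 (7), m57 (9), m44 (10), m61 (12), m89 (13) and m83 (14).

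The total count per library lay between 24840981 in m61 and 48825783 in m49, so 3 counts, the limit taken as not detectable, corresponded to 0.0619 to 0.133 CPM. Before CPM were taken, the totals were scaled by trimmed means of M-values (TMM), with factors between 0.908 and 1.06. All 12 marker genes of striatal projection neurons were measured, with a summed level of 2861 to 6397 CPM. The 12 marker genes of cortical glutamatergic neurons were also measured, at 1302 to 3541 CPM in sum. The share of counts on mitochondrial genes was 2.90% to 5.15% in 10 libraries and 7.21% in m61. In bulk tissue, fewer active cells and less RNA per active cell cannot be told apart.

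The promoters of 3 of the genes are shown because binding of CREB to cyclic AMP response elements (CREs) is a textbook route to the induction of immediate early genes. The RefSeq promoter windows on GRCm38.p6, the assembly of mm10, hold the 250 bases before a gene's start and the 50 from it on, and 32 of the 42 genes have an entry. The windows below are that of Fos at chr12:85473640-85473939 on the plus strand, that of Npas4 at chr19:4989922-4990221 on the minus strand and that of Nr4a1 at chr15:101266596-101266895 on the plus strand. Capitals mark matches to the CRE core TGACG on either strand (CGTCA on the other) and, in Nr4a1, to an EGR site.
Fos: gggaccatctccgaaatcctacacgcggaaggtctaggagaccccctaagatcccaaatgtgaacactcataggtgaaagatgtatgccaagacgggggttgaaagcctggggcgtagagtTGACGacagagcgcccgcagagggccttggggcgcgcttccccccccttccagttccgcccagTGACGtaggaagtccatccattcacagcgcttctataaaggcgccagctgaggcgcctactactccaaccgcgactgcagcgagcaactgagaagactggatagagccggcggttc
Npas4: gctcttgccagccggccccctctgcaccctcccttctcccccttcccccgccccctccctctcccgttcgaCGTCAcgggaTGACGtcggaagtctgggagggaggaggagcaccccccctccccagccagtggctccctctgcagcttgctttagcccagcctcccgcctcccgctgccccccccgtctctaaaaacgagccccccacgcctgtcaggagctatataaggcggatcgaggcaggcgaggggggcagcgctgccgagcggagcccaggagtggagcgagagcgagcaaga
Nr4a1: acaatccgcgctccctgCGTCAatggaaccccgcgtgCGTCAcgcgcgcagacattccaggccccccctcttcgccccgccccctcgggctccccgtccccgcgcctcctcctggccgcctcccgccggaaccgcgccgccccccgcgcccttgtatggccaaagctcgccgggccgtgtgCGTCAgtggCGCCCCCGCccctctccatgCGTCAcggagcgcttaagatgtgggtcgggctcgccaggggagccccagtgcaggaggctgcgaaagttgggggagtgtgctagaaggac

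In the Fos window the CRE core began 129 and 66 bases before the start. In the Npas4 window it began 179 and 169 bases before it. The Nr4a1 window held 4 cores, at 233, 213, 69 and 40 bases before the start, and an EGR site at 60. Among the 32 genes with a window, 20 (62.5%) held the core TGACG, against 23% of 27025 genes with a window. The full CRE, TGACGTCA, which always contains the core, was found in 5 of the 32 (15.6%), namely Btg2, Dusp1, Maff, Ppp1r15a and Scg2, against 2.03% of all. The EGR site GCGNGGGCG was found in 8 (25%) against 6.27%, the CArG box bound by serum response factor in 2 (6.25%, Dusp5 and Egr2) against 1.81%, and the AP-1 site TGANTCA in 2 (6.25%, Bdnf and Csrnp1) against 8.97%. Both strands were searched, and a gene counted when any of its windows matched. The 32 genes had 48 windows, and all 27025 genes had 32851. By window, the core was found in 54.2% against 20.8% of all windows, and the full CRE in 10.4% against 1.79%. These matches are descriptions of letters in a short window and were not tested against anything measured.

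The genes spanned a wide range of levels, which were compared between genes only per length, as the median CPM over 11 libraries per kilobase of merged exons. Scg2, encoding the granule protein secretogranin II, stood first at 186 CPM per kb, followed by Vgf, a secreted neuropeptide precursor, at 95.4 and Jund at 94.6. Egr1 followed at 28.2 and Junb at 19.2. Arc was at 9.52, above the middle of the set, and Fos at 2.38, below it. At the low end stood Bdnf at 1.06, Atf3 at 0.297, Maff at 0.246 and Egr2 at 0.236. Neighbours in this order were close: Vgf and Jund, or Arc and Nr4a1 at 9.65, differed by less than the spread of either gene between libraries.

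Library m89 carried the highest level of 19 of the 40 genes past the filter (47.5%), whereas 5.48% of all 15373 genes past the filter were highest there. Since m89 was singled out for its Fos level, Fos supports nothing here, and 18 of the other 39 genes were highest in it. It was the lowest library for 0 of the 40 genes, against 6.87% of all genes. In m89, 20 of the 40 genes (50%) were at least 1.5 times their median over the 11 libraries, against 6.34% of all genes, and 6 of them, Fos, Arc, Egr2, Nr4a1, Btg2 and Ier5l, were at least 2 times it, against 1.8% of all genes. The median ratio of a gene's level in m89 to its median was 1.49 for the 40 genes and 1 for all genes. Fos is among the genes behind the 20, the 6 and the 1.49, and supports none of them. No test was made of m89 against the other libraries, since it was picked by its values.

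**Figure D1:**
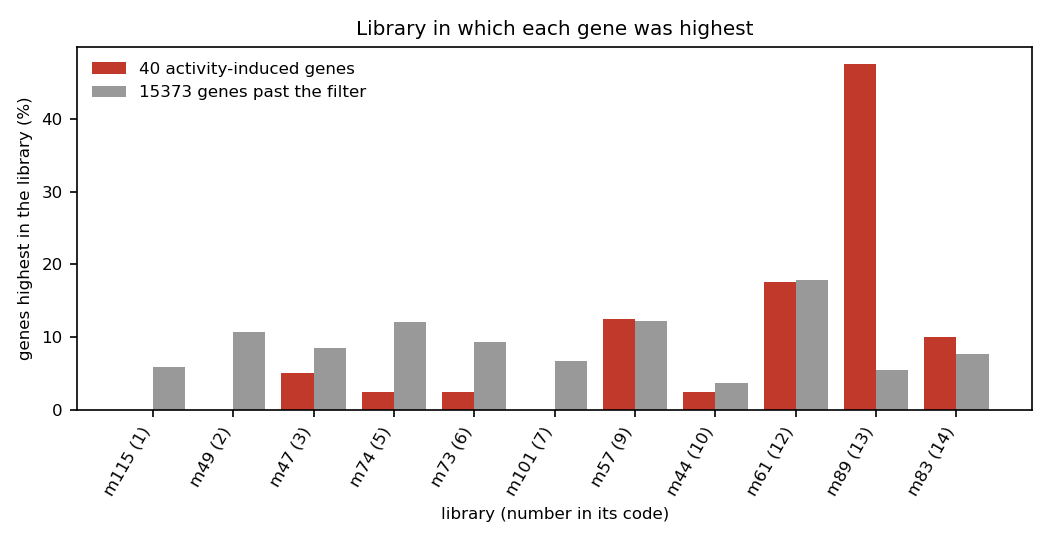
Percent of genes (y axis) whose highest CPM was in each of the 11 libraries (x axis, in order of the number in the library code), with red bars for the 40 activity-induced genes past the filter and grey bars for all 15373 genes past it. In m89 the bars stand at 47.5% and 5.48%, and in m61 they stand at 17.5% and 17.9%. The red bar of m89 includes Fos, by whose level m89 was picked.

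The other libraries were each the highest for fewer genes of the set. m61 was the highest library for 7 of the 40 genes (17.5%, against 17.9% of all genes), m57 for 5 (12.5%, against 12.2%) and m83 for 4 (10%, against 7.69%). At 1.5 times the median or more, however, stood 9 of the 40 genes (22.5%) in m61, against 8.81% of all genes, and 9 (22.5%) in m57, against 8.3%. The median ratio to the gene's own median was 1.22 for the 40 genes in m61, against 0.998 for all genes, and 1.06 in m57, against 1. At the low end, m47 was the lowest library for 12 of the 40 (30%, against 8.57%) and m101 for 7 (17.5%, against 9.48%). That median ratio was 0.869 in m47 and 0.832 in m101, against 1 for all genes in both.

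**Figure D2:**
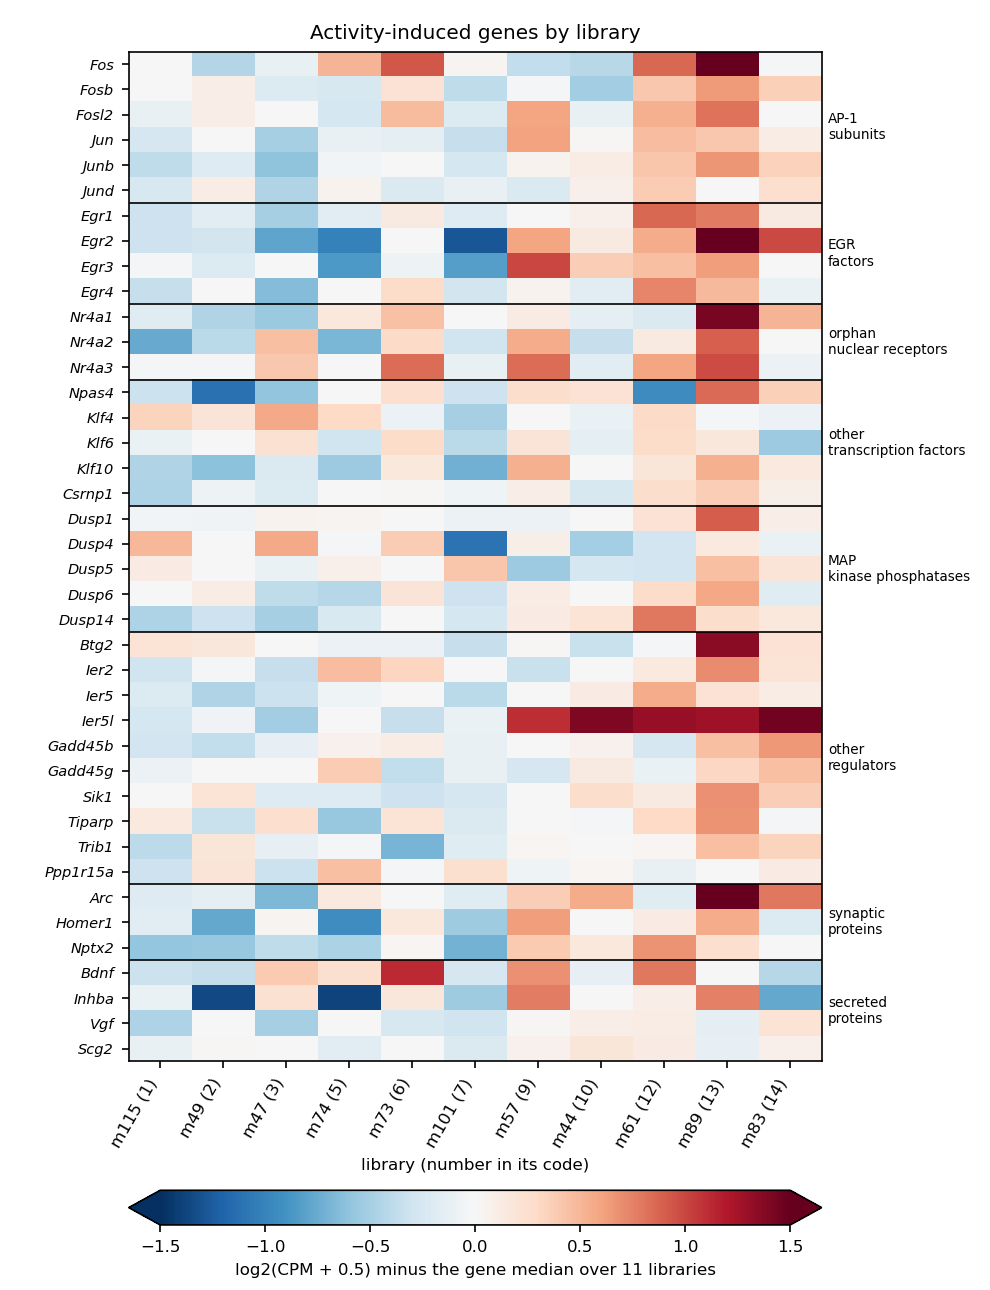
Each cell is the log2(CPM + 0.5) of an activity-induced gene (rows, grouped by role) in a library (columns) minus that gene's median over the 11 libraries; red is above the median, blue below, and the colour scale ends at 1.5. The m89 column is red for most rows of the upper groups, while Vgf and Scg2 at the bottom lie at 0.902 and 0.914 times their medians there.

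Fos, the subunit that with a Jun protein forms the AP-1 transcription factor, lies at chr12:85473890-85477273 on the plus strand. Its level was 26.9 CPM in m89, against 11.2 in m73, 10.6 in m61, 8.20 in m74, 5.79 in m101, 5.61 in m115, 5.51 in m83, 5.16 in m47, 4.22 in m57, 4.07 in m44 and 4.0 in m49. m89 was thus 4.80 times the median of 5.61 CPM and stood apart from the next library, while the other 10 libraries spanned 4.0 to 11.2 CPM. These levels rest on 973 counts in m89 and on 135 to 475 counts in each of the others.

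The other AP-1 genes had smaller ratios in m89. Fosb, a Fos paralog whose stable splice form accumulates with repeated stimulation, had 14.5 CPM in m89 against a median of 9.10 and a lowest value of 6.18. Fosl2 had 43.4 CPM in m89 against a median of 24.5, and Junb 70.0 against 44.2, with lowest values of 20.3 and 28.8 CPM. All 3 were highest in m89, although Fosl2 in m57 (37.1 CPM) and Junb in m61 (59.2 CPM) came near. Jun was highest in m57 at 74.1 CPM, with 64.1 in m89 and a lowest value of 34.1. Jund, the Jun gene known for steady expression, stood at its median of 158 CPM in m89 and reached 206 in m61, 1.78 times its lowest value. Atf3, a stress-induced bZIP factor, reached 1.47 CPM (53 counts) in m89 and had 2 counts in m101, below the limit of 3. Maff, a small Maf protein, lay between 0.181 and 1.42 CPM and was highest in m61.

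Reads of some genes could be shared with a gene on the opposite strand, since the strand setting of the counting is not given in the sources used here. Junb shares 173 exonic bases with Prdx2, an abundant gene at 191 CPM in m89 and 191 to 364 CPM over all libraries, Prdx2 thus being lowest where Junb was highest. Jund shares 877 bases with Gm11175, whose highest level was 4.09 CPM. Dusp1 shares 11 bases with Ergic1, which was lowest in m89 at 123 CPM. Jun, Dusp5, Bdnf, Tiparp, Ppp1r15a and Csrnp1 also overlap such a gene, and the partners with a value here stayed at or below 1.32 CPM.

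The EGR zinc finger factors were high in m89 but peaked there in 1 of 4 genes. Egr1, which responds to kinase signalling through serum response factor, lies on chromosome 18. It had 218 CPM in m89, against 232 in m61, 139 in m73, 139 in m83, 134 in m44, 127 in m57, 113 in m49, 113 in m74, 111 in m101, 102 in m115 and 89.5 in m47. m61 and m89 thus stood together above the other 9 libraries. Egr2 was the most variable gene of the set, at 3.90 CPM (141 counts) in m89, a median of 0.803 and 1 count in m101, below the limit. Egr3, a related factor, had 61.3 CPM in m89, a highest value of 79.5 in m57 and a lowest of 21.5 in m74. Egr4 had 35.3 CPM in m89, a highest value of 41.9 in m61 and a lowest of 15.8 in m47.

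All 3 NR4A orphan nuclear receptors, which bind DNA without a known ligand requirement, were highest in m89. Nr4a1 had 91.9 CPM in m89, against 48.4 in m83, the next library, and a lowest value of 22.9 in m47. Nr4a2, known for its role in dopamine neurons, had 39.6 CPM in m89, against a median of 21.1 and a lowest value of 12.3. Nr4a3 had 43.4 CPM in m89, against a median of 21.7 and a lowest value of 19.4. For Nr4a1 no other library came near m89, whereas Nr4a3 also reached 39.3 CPM in m57 and 39.2 in m73.

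Of the other transcription factors, Npas4, a factor of neurons induced by calcium entry, had 26.8 CPM in m89, against 18.9 in m83 and a lowest value of 6.52 in m49. Csrnp1, a nuclear protein of the AXUD family, had 10.0 CPM in m89 and a lowest value of 5.41. The Krüppel-like factors were not highest in m89. Klf10 had 24.9 CPM in m89 and 25.0 in m57, with a lowest value of 10.2. Klf6 had 46.0 CPM in m89 within a range of 27.9 to 49.4, and Klf4 had 3.6 within 2.48 to 5.75.

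The dual-specificity phosphatases, which remove phosphates from MAP kinases and so limit the signal that induces them, split. Dusp1, a nuclear phosphatase, had 28.6 CPM in m89 and only 14.1 to 17.5 CPM in the other 10 libraries. Dusp6, a cytoplasmic ERK phosphatase, had 35.3 CPM in m89, against 17.2 to 28.5 in the other 10. Dusp5 was also highest in m89, at 9.68 CPM, but m101 followed closely at 9.41. Dusp4 was highest in m47 (5.94 CPM, against 4.29 in m89) and Dusp14 in m61 (53.2 CPM, against 36.7 in m89). For Dusp1 the other 10 libraries lay close together and far below m89.

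Among the remaining regulators, Btg2, an antiproliferative factor that promotes RNA deadenylation, had 30.1 CPM in m89, against 8.93 to 13.4 in the other 10 libraries. Sik1, a kinase that restrains CREB coactivators, had 33.5 CPM in m89, against 16.6 to 26.8. Tiparp, an ADP-ribosyltransferase, had 23.0 CPM in m89, against 9.40 to 17.6. Ier2, a small nuclear immediate early protein, had 7.27 CPM, against 3.25 to 6.05, and Trib1, a pseudokinase, had 14.3 against 6.14 to 13.1. These 5 were highest in m89. Gadd45b and Gadd45g, stress proteins linked to DNA demethylation, were highest in m83 at 13.9 and 15.3 CPM, with 12.0 and 13.9 in m89. Ier5 was highest in m61 (68.6 CPM, against 53.7 in m89), and Ppp1r15a, a regulatory subunit that reverses the stress block on translation, was highest in m74 (22.8 CPM, against 16.5 in m89).

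**Figure D3:**
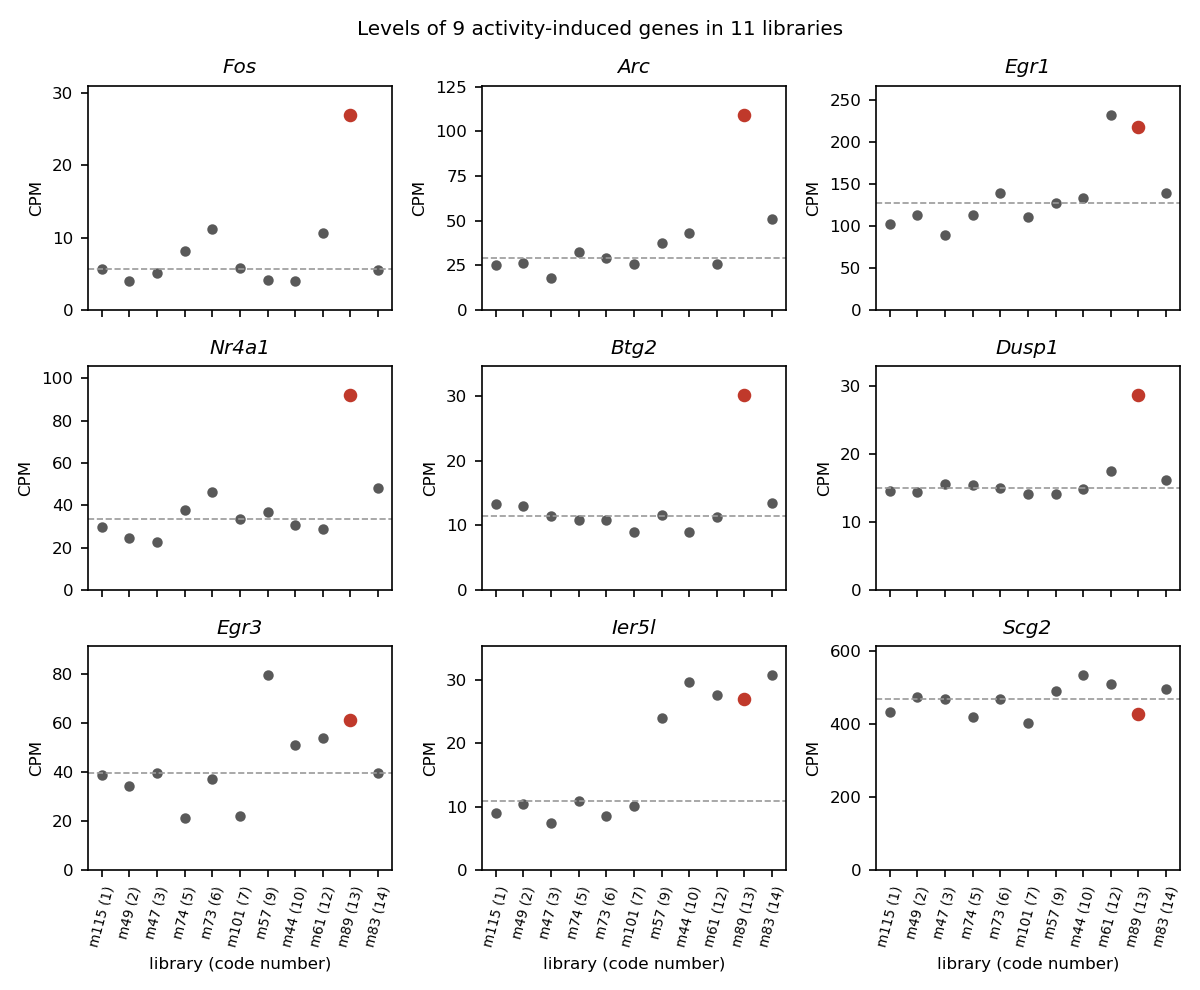
CPM (y axis, from 0) of 9 activity-induced genes in the 11 libraries (x axis, in order of the number in the library code), 1 point per library, with m89 in red and the median as a dashed line. m89 stands alone for Fos, Arc, Nr4a1, Btg2 and Dusp1, shares the top with m61 for Egr1 and lies within the other libraries for Egr3, Ier5l and Scg2.

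Of the synaptic proteins, Arc, a capsid-like protein that controls AMPA receptor endocytosis and whose gene lies at chr15:74669083-74672570 on the minus strand, was the most distinct. It had 109 CPM in m89, against 50.9 in m83, 42.9 in m44, 37.6 in m57, 32.3 in m74, 29.1 in m73, 26.5 in m49, 25.7 in m61, 25.6 in m101, 25.3 in m115 and 18.1 in m47. m89 was 3.73 times the median of 29.1 CPM. Homer1, a postsynaptic scaffold with an activity-induced short form that gene counts do not separate, had 144 CPM in m89 and its highest value, 151, in m57, with a lowest of 51.1. Nptx2, a pentraxin that gathers AMPA receptors, had 23.0 CPM in m89 and its highest value, 31.0, in m61.

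None of the 4 secreted proteins was highest in m89. Bdnf, the neurotrophin, had 6.61 CPM in m89, which was its median, and was highest in m73 at 15.0. Inhba, the activin subunit gene, had 14.1 CPM in m89 and 14.2 in m57, with a lowest value of 2.79 in m74. Vgf had 256 CPM in m89 within 201 to 328, and Scg2 had 428 CPM within 402 to 532. Scg2 varied least of the 40 genes.

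The spread between libraries was measured as the biological coefficient of variation, the part of the variation beyond counting error, fitted gene by gene in edgeR. Its median was 0.260 over the 40 genes and 0.201 over all 15373, and 33 of the 40 lay above that median of all genes. Fos (0.616), Arc (0.515), Egr2 (1.01), Ier5l (0.556) and Inhba (0.515) lay above the 90th percentile of all genes, 0.435, which 10% of all genes pass by construction. Without m89, the median was 0.221 over the 40 genes and 0.203 over all, 25 of the 40 lay above the median of all genes, and Egr2, Ier5l and Inhba remained above the 90th percentile. Dusp1 had a spread of 0.0440 without m89 and 0.214 with it. Btg2 had 0.133 without it and 0.355 with it, Nr4a1 0.244 and 0.408, Arc 0.299 and 0.515, and Fos 0.379 and 0.616.

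The relation of each gene with Fos, Arc and Egr1 over the libraries was measured by Pearson's r and Spearman's rho of log2(CPM + 0.5), with two-sided permutation tests of 100000 permutations adjusted by Benjamini and Hochberg over all genes past the filter. The smallest p the permutations can give is 1e-05, which for 1 gene alone among 15372 means an adjusted p of 0.154. An adjusted p of 0.05 could therefore be passed only where several genes lay at or near that limit. With Fos, r passed an adjusted p of 0.05 for 0 of 15372 genes (0%) and so for 0 of the other 39 activity-induced genes. The same count by rho was 0, and an unadjusted p under 0.05 was reached by 308 genes by r (2%) and 578 by rho. Among them were 10 of the 39 activity-induced genes by r, but only Ier2 by rho (unadjusted permutation p 0.0112). Dusp1 came next by rho, with an unadjusted permutation p of 0.0767. The median r of the 39 genes with Fos was 0.42, against -0.01 for all genes, and 15 of the 39 had an r of at least 0.5, against 1.91% of all genes. Without m89, the median was 0.13, 5 of the 39 had an r of at least 0.5, against 6.24% of all genes, and 1 of the 39 had an unadjusted p under 0.05, against 4.32%.

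Dusp1 had the highest r with Fos, 0.86 (rho 0.56, unadjusted permutation p 0.00542, adjusted p 1), with 0.57 without m89 and 0.74 without m89 and m73, the 2 libraries farthest from the median of Fos. Ier2 followed at 0.80 (rho 0.75, unadjusted permutation p 0.0021, adjusted p 1), with 0.65 without m89 and 0.57 without both. Egr1 had an r of 0.71 and 0.53 without m89, and Egr4 0.67 and 0.62. For these 4 genes r stayed above 0.5 without m89. For others it rested on m89: Btg2 had an r of 0.70, which was -0.09 without m89, and Arc had 0.57, which was -0.20 without m89. Nr4a1 had 0.77 and 0.37, and 0.13 without both m89 and m73. Bdnf went the other way, with an r of 0.63 without m89 and 0.31 over 11 libraries.

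**Figure D4:**
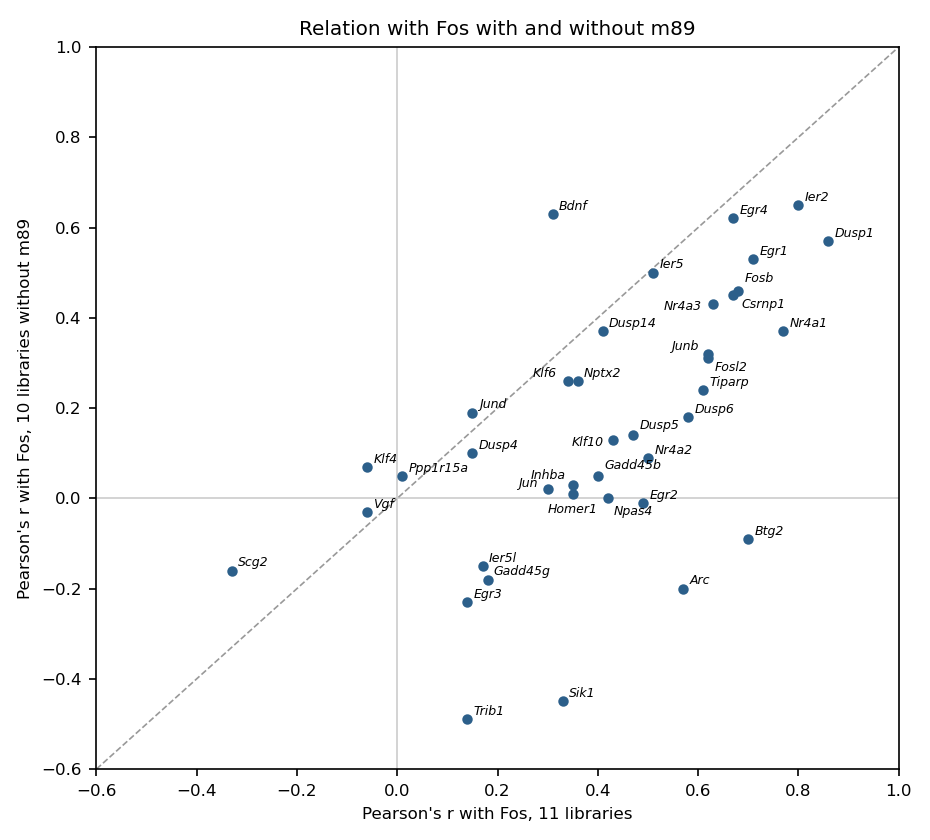
Pearson's r with Fos over 11 libraries (x axis) and over the 10 libraries without m89 (y axis) for the 39 other activity-induced genes past the filter, 1 point per gene; the dashed line marks equal values. Most points lie below the line: Arc drops to -0.20 and Btg2 to -0.09 without m89, while Ier2 stays at 0.65 and Bdnf lies above the line at 0.63.

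The relations with Egr1 kept more of their size without m89 for several genes, which was not tested as a difference. The median r of the 39 genes with Egr1 was 0.58, against -0.05 for all genes, and 24 had an r of at least 0.5, against 8.23% of all genes. Without m89, the median was 0.41, against -0.07, and 18 had an r of at least 0.5, against 17.9%. The adjusted p passed 0.05 for 0 of 15372 genes (0%) by r and for 0 by rho, with 1446 (9.41%) and 1197 genes at an unadjusted p under 0.05. By r, 17 of the 39 activity-induced genes had one over 11 libraries, and 12 of the 39 had one without m89, against 20.9% of all genes. Junb came first, with an r of 0.92, a rho of 0.96, an unadjusted permutation p of 1e-05, the smallest the permutations can give, an adjusted p of 0.154 and an r of 0.94 without m61 and m89, the libraries farthest from the median of Egr1. Dusp14 had an r of 0.91 (rho 0.95, unadjusted permutation p 2e-05, adjusted p 0.154) and 0.92 without the same libraries, and Egr4 0.91 and 0.78. Other genes moved more when m61 was left out as well. Dusp1 had 0.65 without m89 and 0.06 without both, and Fos 0.53 and 0.18. In the other direction, Arc had 0.30 without m89 and 0.86 without both, and Nr4a1 0.25 and 0.78.

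With Arc, the median r of the 39 genes was 0.48, against -0.01 for all genes, and 0.30 without m89, against 0.02. The adjusted p passed 0.05 for 0 of 15372 genes (0%) by r and for 0 by rho, with 699 (4.55%) and 1084 at an unadjusted p under 0.05. Among the 39 activity-induced genes, 12 had an unadjusted p under 0.05 over 11 libraries and 6 had one without m89, against 7.97% of all genes. An r of at least 0.5 was found for 18 of them, against 5.71% of all genes, and for 9 without m89, against 11.1%. Nr4a1 had the highest r with Arc, 0.89 (rho 0.77, unadjusted permutation p 0.00126, adjusted p 0.596), with 0.69 without m89 and 0.53 without m89 and m83, the 2 farthest libraries. The relation of Dusp1 with Arc, 0.76, was -0.01 without m89.

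Pairs of activity-induced genes also moved together over the libraries, a description over 780 pairs of 40 genes that share the same 11 libraries. The median r of a pair was 0.40, against 0.00 for pairs of all genes. Without m89, the median was 0.26, against 0.00. Several of the closest pairs kept their r without m89: Homer1 and Inhba had 0.96 with and without it, Egr1 and Egr4 0.91 with and without it, Dusp14 and Ier5 0.92 with and without it, and Fosl2 and Nr4a3 0.92 with it and 0.89 without. Dusp1 and Btg2 had 0.89 with m89 and 0.20 without. Nr4a3 and Bdnf had 0.74 with m89 and 0.92 without it.

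Markers of other cell types and signs of RNA quality were set beside the activity-induced genes. In all, 15 first measures were related to every gene: the 3 marker genes, 6 cell type scores, and 6 measures of transcript length, clock, glucocorticoid response, depth, mitochondrial share and library code. A score is the mean, over a list's genes, of the log2 deviation from the gene's median. In m89 the score of striatal projection neurons was 0.43 within a range of -0.51 to 0.56, that of cortical neurons 0.12 within -0.36 to 0.19 and that of neuroblasts and dividing cells 0.84 within -1.35 to 1.17. Its vessel score, -0.24, was the lowest of the 11, its clock score was 0.18 within -0.27 to 0.20, its glucocorticoid score 0.05 within -0.38 to 0.46 and its mitochondrial share 3.79%. The heat shock genes, 6 of 6 past the filter, had a summed level of 1599 CPM in m89 within 1596 to 2198. The part of any of these in the levels of m89 was not tested.

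Adjusted p-values under 0.05 were reached by 3 relations of the set. With the microglia score, Jund had an r of 0.82 (rho 0.71, permutation p 0.00204, adjusted p 0.0296) and Vgf an r of 0.79 (rho 0.76, permutation p 0.00323, adjusted p 0.0368). They were 2 of 40 genes against 11.6% of all genes, so the share did not exceed the background, and by rho 0 genes passed. Jund had 0.58 and Vgf 0.76 without m61 and m47, the 2 libraries farthest from the median of that score. Without m89 the adjusted permutation p was 0.0341 for Jund and 0.0505 for Vgf. Within the 6 libraries of codes 1 to 7, r was 0.97 for Jund (rho 0.94, exact permutation p 0.00556) and 0.89 for Vgf (rho 0.77, exact permutation p 0.0333), both p-values unadjusted. Both genes were picked by their relation over the 11 libraries, which include these 6, so these values are no separate support. All 8 microglia genes were measured, at 344 CPM in sum in m89 and 335 to 545 CPM over the 11 libraries. With the difference in level between the longest and the shortest 10% of transcripts, which RNA quality can shift, Jund had an r of -0.86 (rho -0.86, permutation p 0.00084, adjusted p 0.0073), and -0.79 without m61 and m57. Within the 6 libraries of codes 1 to 7, for a gene picked in the same way, it was -0.81 (rho -0.77, unadjusted exact permutation p 0.0583). That is 1 of 40 genes, against 31.3% of all genes by r and 24.6% by rho.

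With the vessel score 0 of the 40 genes passed, against 4.68% of all genes by r and 0.0846% by rho, and with the mitochondrial share 0 passed, against 0.293% by r and 0.026% by rho. With the mature oligodendrocyte score 0 of the 40 passed, against 0% of all genes by r and by rho. Their median r with it was 0.45, against -0.05 for all genes. By r, 14 of the 40 (8 without m89) had an unadjusted permutation p under 0.05, and 1440 of all 15373 genes had one.

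The striatal projection neuron score split the libraries by the number in their code. It was 0.33 to 0.56 in the 5 libraries of codes 9 to 14 and -0.51 to -0.17 in the 6 libraries of codes 1 to 7, with no overlap, and what the code stands for is not known here. The score of clock output and repressor genes divided in the same way, with 0.01 to 0.20 in codes 9 to 14 and -0.27 to -0.05 in codes 1 to 7. Whether it follows the hour of collection, which the labels do not give, was not tested. The summed level of this list was highest in m57 and lowest in m74. That of the 3 clock activators was highest in m57 and lowest in m49. Because of the division, no r over the 11 libraries is given for the projection neuron score or the clock output score. The counts of such tests, which the division enters, were 0 of the 40 genes at an adjusted p under 0.05 for the projection neuron score, against 0.065% of all genes, and 0 for the clock score, against 0.026%, with 0 genes by rho for both. At an unadjusted p under 0.05 they were 13 of the 40 (10 without m89), against 8.94% of all genes, and 11 of the 40 (8 without m89), against 8.65%. Ier5l, an Ier5 homolog, showed the same division: its levels were 24.0 CPM in m57, 29.6 in m44, 27.6 in m61, 27.0 in m89 and 30.7 in m83, against 9.0 in m115, 10.5 in m49, 7.44 in m47, 10.9 in m74, 8.50 in m73 and 10.1 in m101. Within the 6 libraries of codes 1 to 7, the r of Ier5l with the projection neuron score was -0.52 (rho -0.49, exact permutation p 0.261), and that of Egr3 was 0.75 (rho 0.77, exact permutation p 0.164). With the clock score in the same 6 libraries, r was 0.67 for Egr3 (rho 0.94, exact permutation p 0.136), 0.86 for Homer1 (rho 0.83, exact permutation p 0.0389) and 0.41 for Klf10 (rho 0.60, exact permutation p 0.408). These p-values are unadjusted, and the genes were chosen after their values had been seen. Over the whole set the values with the clock score in these 6 libraries had both signs. Vgf had an r of -0.98, Ppp1r15a -0.94 and Jund -0.93, whereas Tiparp had 0.93 and Inhba 0.92.

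Set side by side by code, a view chosen after the levels had been seen, 6 of the 40 genes (Jun, Junb, Egr2, Dusp14, Ier5 and Ier5l) had every library of codes 9 to 14 above every library of codes 1 to 7, against 1.67% of all genes. None had the reverse order, against 0.65%. Without scaling of the totals the count was 4, and the share of all genes under that setting is not given here. Egr2 is no support in the count of 6. It reached the 1 CPM that the filter asks for in 3 libraries only in codes 9 to 14. Its highest level in codes 1 to 7 was 0.803 CPM. Fos did not divide in this way, with 4.07 to 26.9 CPM in codes 9 to 14 and 4.0 to 11.2 CPM in codes 1 to 7. Whether the code, the cell makeup of the punch or a genotype moves with these levels cannot be told apart. With the number in the code itself as the measure, 0 of the 40 genes passed an adjusted permutation p of 0.05. The share of all genes was 0% by r and by rho. At an unadjusted permutation p under 0.05 by r there were 14 of the 40, and 1688 of all 15373 genes.

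**Figure D5:**
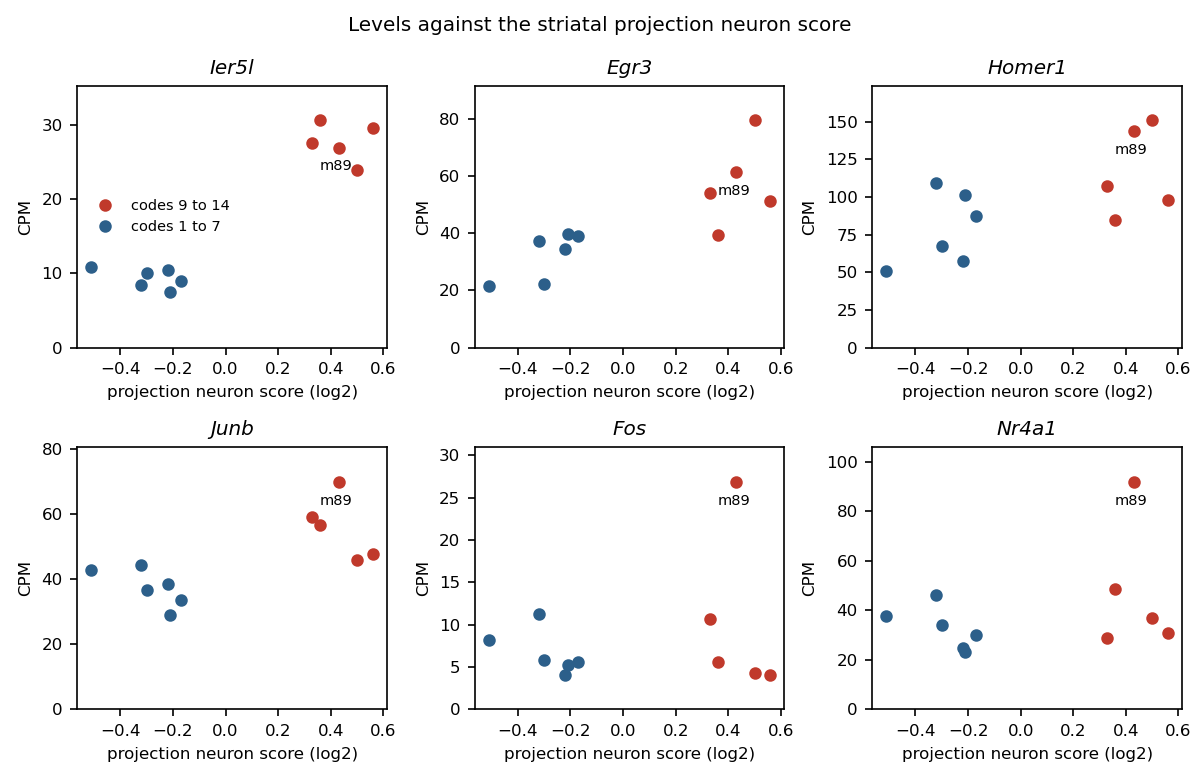
CPM (y axes, from 0) of 6 activity-induced genes against the striatal projection neuron score (x axes, mean log2 deviation of 12 marker genes), 1 point per library, red for codes 9 to 14 and blue for codes 1 to 7, with m89 labelled. Ier5l lies at 24.0 to 30.7 CPM on the right and 7.44 to 10.9 on the left, Fos shows no such division, and Nr4a1 is high in m89 alone.

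The genes around the set were read in the same way from a pair of lists. Of 32 signalling proteins and transcription factors upstream of the set, all past the filter, 0 were highest in m89 and 0 reached 1.5 times their median there, against 5.48% and 6.34% of all genes, and the median r with Fos was 0.03. The highest r in this list was 0.37 for Ppp3cb, a calcineurin subunit, then 0.31 for Grin2a, an NMDA receptor subunit, 0.31 for the transcription factor Mef2c, 0.24 for Creb1, which encodes CREB, and 0.23 for the kinase Camk4. The lowest were -0.45 for the NMDA receptor subunit Grin1 and -0.52 for Mrtfa, a coactivator of serum response factor. Without m89, r was 0.43 for Ppp3cb, 0.11 for Grin2a, 0.38 for Mef2c, 0.08 for Creb1, -0.06 for Camk4, -0.54 for Grin1 and -0.75 for Mrtfa. Creb1 had 65.5 CPM in m89 within a range of 39.6 to 77.2.

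Of 51 other genes known to be induced by activity, 50 passed the filter. Of these 50, 10 were highest in m89, against 5.48% of all genes, and 8 were at least 1.5 times their median there, against 6.34%. Their median r with Fos was 0.22, against -0.01 for all genes. Ccn1, a secreted matrix protein, had the highest r with Fos, 0.73, and 9.37 CPM in m89 against a median of 3.22. Gpr3, a constitutively active receptor coupled to cyclic AMP, had an r of 0.69 with 9.04 CPM in m89 against a median of 5.22. Coq10b had 0.68, Idi1, an enzyme of isoprenoid synthesis, 0.64, and Ptgs2, the inducible cyclooxygenase, 0.62. The lowest were -0.37 for Dusp2 and -0.54 for Sik3. Without m89, r was 0.16 for Ccn1, 0.31 for Gpr3, 0.61 for Coq10b, 0.42 for Idi1, 0.50 for Ptgs2, -0.20 for Dusp2 and -0.75 for Sik3. None of the genes in either list passed an adjusted p of 0.05 with Fos.

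Outside the set, the genes whose pattern was most like that of Fos, Arc and Egr1, by the mean of their r with the 3 over 11 libraries, were Osbp2, an oxysterol-binding protein gene (mean r 0.76), Gpr3 (0.74), the endopeptidase gene Phex (0.72), Wnt5b, a Wnt ligand gene (0.70), the noncoding transcript 1700016P03Rik (0.70), Idi1 (0.70), Ccn1 (0.69), Insig1, a sterol sensor gene (0.68), Tnfaip6 (0.67) and Snap25, a SNARE protein gene (0.67). Of these 10, Tnfaip6 was highest in m83, at 6.25 CPM against 6.17 in m89, and the other 9 were highest in m89. They were picked by their r with genes that were high in m89, so this peak is no separate finding. 1700016P03Rik had 7.44 CPM in m89 against a median of 1.82, and Phex 2.85 CPM against 0.898. Without m89, Osbp2 had an r of 0.57 with Fos, 0.50 with Arc and 0.73 with Egr1, whereas Phex had 0.30, 0.01 and 0.60 with the same genes. Snap25 had 2262 CPM in m89 against a median of 1816, a far smaller ratio. Without m89, the highest means belonged to Nppc, the C-type natriuretic peptide gene (0.63), Rtn4r, the Nogo receptor gene (0.63), the guanylyl cyclase gene Gucy2g (0.63), Lmo1 (0.62) and C1qtnf4 (0.62). These 5 were highest in m61 and at or below their median in m89. Egr1, by which they were picked in part, was also highest in m61, so the peak in m61 is no separate finding. Lmo1 had 5.95 CPM in m89, its lowest value, against 13.2 in m61.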

How the data were processed

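Poly(A) RNA of each punch was made into a stranded library from 200 ng of total RNA with 12 PCR cycles, per the labels' protocols. The deposited table holds whole-number counts per gene made by the authors, with HTSeq 0.6.1 after alignment to mm10 by TopHat2 2.0.14 with Bowtie2 2.1.0 and base calling by bcl2fastq 2.17.1.14, tools that the submitters' processing notes name without an order. Neither the annotation release nor the strand setting of HTSeq is given in the sources used here. Of the gene identifiers, 52403 had an entry in GENCODE M21 and 147 had none.

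From these counts, CPM on TMM-scaled totals and the biological coefficient of variation (intercept only, prior.df of 0) were computed with edgeR 4.0.16 in R 4.3.3. Correlations with 100000 permutations, adjusted over all genes past the filter, were run in Python 3.11.15 with numpy 2.4.6 and scipy 1.17.1. The steps were tested on simulated data. Depth was 24840981 to 48825783 counts per library, and limits from 3 counts cover counting error only. Each library has its own animal code, and the spread between libraries includes any difference of genotype. Alternatives were DESeq2 1.42.0 size factors, unscaled totals, totals without mitochondrial genes, pseudocounts of 0.1 and 2 CPM, other filters, rank correlation and leaving out each library.

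The 42 genes and the other lists were chosen with earlier results of these data known. Every member is named, with all 11 values for Fos, Arc and Egr1. Genes outside the set were named by their mean r with these 3, and by the 5 highest and 2 lowest r with Fos in each list. Values in all libraries for Ier5l were added after they had been seen, as was the view by library code. RefSeq promoter windows came from the GRCm38.p6 table, and motifs were matched by letters.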

Additional observations from a re-analysis of the deposited data

How the results depend on the processing

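The 19 genes highest in m89 were 17 to 25 under the other scalings and filters and when any other library was left out. Fewer genes are counted under the stricter filter, a mean of 5 CPM or more. Egr2 and Ier2, both highest in m89, do not pass it. The share of all genes highest in m89 under each alternative is not given here. When each library was left out in turn, m89 included, the median spread stayed between 0.221 and 0.271. Under every alternative run, 0 of the activity-induced genes had a relation with Fos, Arc or Egr1 at an adjusted permutation p under 0.05. The limit that the number of permutations sets, given above, enters these counts as well. The 2 genes related to the microglia score became 1 without scaling of the totals, 1 without m89 and 0 by Spearman's rho. Leaving out m89 reversed the r of Arc with Fos to -0.20 and that of Btg2 to -0.09. Leaving out each library in turn gave -0.20 to 0.66 for Arc and -0.09 to 0.77 for Btg2. The view by code gave 6 genes, 5 with DESeq2 size factors or without mitochondrial genes, and 4 unscaled. For these alternatives too, the share of all genes is not given here. Of the spread values under an alternative, 630 stayed within their jackknife error and 6 did not: those of Fos, Arc, Nr4a1, Dusp1 and Btg2 without m89, and the Scg2 spread, 0.0648 without scaling of the totals. No paired analysis was possible because the labels put no library in a group. Genes near 1 CPM, such as Egr2, Atf3 and Maff, rest on 1 to 141 counts per library, so their ratios are imprecise. With 11 libraries, a single one can carry an r, as m89 did for Arc and Btg2.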

Other observations

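Markers of striatal neuron types that the values above do not show were read in m89 as well. Of the 5 measured markers of indirect pathway neurons, which carry D2 dopamine receptors, 4 were at least 1.5 times their median in m89, against 6.34% of all genes. This did not set m89 apart: their summed level was 1126 CPM in m89 and 1669 CPM in m61, within a range of 429 to 1669 CPM over the 11 libraries. Among the 7 direct pathway markers, 2 were at least 1.5 times their median in m89, with a score of 0.28 within -0.32 to 0.48. The cholinergic neuron markers had a score of 0.26 in m89 within -0.74 to 0.69, and the red blood cell genes -0.52 within -0.87 to 0.78. The part of these in the levels of the activity-induced genes was not tested.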
